A study of Arabidopsis thaliana with 7 samples.

Results

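The genes described here are nuclear genes whose products work in the plastid or the mitochondrion, and the question was which of them lay near open chromatin called in *msh1* memory plants, plastid against mitochondrion. A gene was taken when the first clause of its description in the lists held chloroplast, plastid, photosystem, chlorophyll, thylakoid, mitochondri, cytochrome c, NADH dehydrogenase or ubiquinol. Genes for ribosomal proteins, pentatricopeptide repeat proteins, kinases and transporters were left out. This gave 148 of the 2600 genes in any list. Of these, 103 named the plastid alone, 41 the mitochondrion alone and 4 both organelles (*OVA5*, *APXS*, *FC1* and *GLN2*). Whether a gene was listed at all was part of the choice, whereas the number of lists that held it was not.

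FAIRE-seq sequences the DNA that formaldehyde has not fixed to protein, which marks open chromatin. It was applied to whole rosettes of *Arabidopsis thaliana* Columbia-0 grown for 14 days at 24 °C under 12 h of light. Crosslinked libraries came from 2 wild type plants and from 3 plants of the *msh1* memory line, each 1 plant. The labels give its genotype as *msh1* memory line and no more. As background, such lines descend from plants with an *MSH1* RNA interference transgene that has since segregated away. The data were 6 gene lists, 1 for each memory plant (1, 2 and 3) against each wild type plant (coded C2 and C3), and a gene was in a list when the authors had placed a peak of that memory plant within 2 kb of it. Which wild type replicate is C2 and which is C3 was not stated. A listing is presence or absence, with no level, peak position or depth, so no difference below carries a test and genes are not replicates of a plant. The 3 lists of a control share its library and the pair of lists of a memory plant share that plant, so the 6 lists are not independent. In a rosette of many cell types, a peak in fewer cells and a weaker peak in all cells cannot be told apart.

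Plastids and mitochondria keep small genomes, and nearly all of their proteins are encoded in the nucleus, made in the cytosol and imported through translocases of the outer and inner membranes. Photosystems and the respiratory chain mix subunits from both genomes, so nuclear and organelle gene expression have to be matched. Signals from the organelle to the nucleus, called retrograde signals, are part of that matching, and tetrapyrrole synthesis is known for its place in them. MSH1 is a nuclear-encoded protein of plastids and mitochondria that acts in the stability of their genomes. *MSH1* itself (AT3G24320, chr3:8822924-8829728, minus strand, TAIR10.1) was in 0 of the 6 lists.

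Promoters of genes in all 6 lists are shown because the lists place a peak near these genes but do not say where. The 5 below were chosen for carrying motif matches and for having at least 250 bases free of another protein-coding gene. Each is the 250 bases before the annotated gene start, on the gene's strand, read from the TAIR10.1 genome. *LHCB2.1* (AT2G05100) is a light-harvesting protein of photosystem II, and its promoter lies at chr2:1824481-1824730, minus strand. *PSAD1* (AT4G02770) is the ferredoxin-docking subunit of photosystem I, with its promoter at chr4:1230165-1230414, minus strand. *PSBQ2* (AT4G05180), of the oxygen-evolving complex, has chr4:2673244-2673493, minus strand. *NYC1* (AT4G13250), which reduces chlorophyll b, has chr4:7687007-7687256, minus strand. *TOC120* (AT3G16620), an import receptor of the plastid outer envelope, has chr3:5662067-5662316, minus strand. Capitals mark matches on either strand to the G-box (CACGTG), the I-box core (GATAAG), the site II element core (TGGGCC), the evening element (AAAATATCT), the telo-box (AAACCCTA) or the TATA box core (TATAAA).
LHCB2.1: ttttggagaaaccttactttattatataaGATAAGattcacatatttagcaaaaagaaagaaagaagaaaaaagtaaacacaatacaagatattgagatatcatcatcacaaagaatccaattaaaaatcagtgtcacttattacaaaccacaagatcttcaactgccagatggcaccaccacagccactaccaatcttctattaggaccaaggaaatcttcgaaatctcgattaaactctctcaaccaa
PSAD1: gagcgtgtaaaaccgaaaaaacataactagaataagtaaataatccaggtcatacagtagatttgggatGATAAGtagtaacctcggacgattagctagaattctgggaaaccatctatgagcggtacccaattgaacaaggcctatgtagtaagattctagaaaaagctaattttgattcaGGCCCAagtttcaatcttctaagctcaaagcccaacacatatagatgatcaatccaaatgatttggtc
PSBQ2: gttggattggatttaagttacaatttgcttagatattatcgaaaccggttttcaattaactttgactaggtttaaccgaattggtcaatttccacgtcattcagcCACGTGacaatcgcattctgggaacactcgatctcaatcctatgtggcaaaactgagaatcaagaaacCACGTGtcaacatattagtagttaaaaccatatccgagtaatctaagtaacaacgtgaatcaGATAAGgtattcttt
NYC1: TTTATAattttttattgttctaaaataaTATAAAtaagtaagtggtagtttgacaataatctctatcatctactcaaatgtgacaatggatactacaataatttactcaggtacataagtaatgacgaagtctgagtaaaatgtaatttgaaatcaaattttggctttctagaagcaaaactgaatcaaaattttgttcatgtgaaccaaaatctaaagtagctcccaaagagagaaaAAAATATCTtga
TOC120: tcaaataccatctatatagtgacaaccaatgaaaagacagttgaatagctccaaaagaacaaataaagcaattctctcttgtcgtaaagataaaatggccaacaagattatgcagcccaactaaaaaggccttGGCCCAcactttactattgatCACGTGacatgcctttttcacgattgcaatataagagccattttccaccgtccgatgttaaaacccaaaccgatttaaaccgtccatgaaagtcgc

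*PSBQ2* held G-boxes whose first base lay 145 and 77 bases before the gene start, and an I-box at 15. *LHCB2.1* held an I-box at 221 bases, and *PSAD1* an I-box at 181 and a site II element at 68. *TOC120* paired a site II element at 117 with a G-box at 96. The G-box is bound by light-responsive bZIP and bHLH factors, and the I-box is a common element of light-regulated promoters. Site II elements are bound by TCP factors and recur in promoters of genes for mitochondrial proteins. A match is a description of sequence, not a binding site.

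Across the 148 promoters, a G-box was present in 14.9%, against 6.49% of the promoters of all 27443 protein-coding genes with a full 250 bases and 8.35% of those of all listed genes. It was in 16.5% of plastid and 12.2% of mitochondrial promoters. Site II elements ran the other way, in 36.6% of mitochondrial and 21.4% of plastid promoters, beside 13.7% of all genes. The I-box was in 15.5% of plastid promoters, in 4.88% of mitochondrial ones and in 12.3% of all, but in 7 of the 18 genes for photosystems, antenna and electron transport. TATAAA was less frequent than in all genes, in 36.5% against 47.3%, and was in 3 of the 18 genes in all 6 lists. The evening element (2.70% against 2.36%) and the telo-box (3.38% against 4.49%) lay near the background. These shares describe genes for organelle proteins, and no comparison with unlisted genes of the same kind was made.

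**Figure D1:**
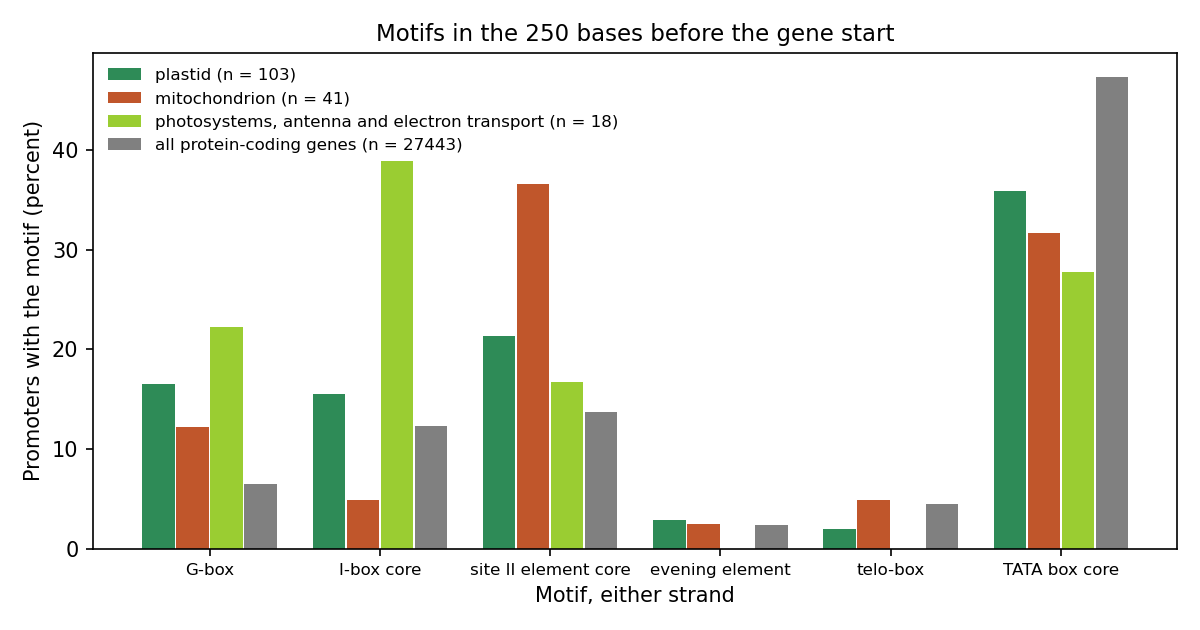
Percent of promoters (250 bases before the gene start) that hold each motif on either strand, for plastid genes, mitochondrial genes, the 18 genes for photosystems, antenna and electron transport, and all protein-coding genes. Site II elements reach 36.6% in mitochondrial promoters and the I-box 38.9% in the photosystem group.

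By the keyword rule, a larger share of plastid than of mitochondrial genes was in all 6 lists, and neither share exceeded that of listed genes as a whole. The gap between the organelles depended on how the sets of genes were drawn up. Of the 103 plastid genes, 15 (14.6%) were in all 6 lists, of the 41 mitochondrial genes 3 (7.32%), and of all 2600 listed genes 426 (16.4%). Among all 27444 protein-coding genes, 9.47% were in at least 1 list and 1.55% in all 6. At 4 or more lists the shares were 30.1% of plastid, 17.1% of mitochondrial and 32.6% of all listed genes. The median was 2 lists in each of these sets, and the means were 2.80, 2.41 and 2.86. Genes in a single list were 33 of the plastid and 12 of the mitochondrial genes (29.3%), beside 31.3% of all listed genes. The organelles differed mostly at the upper end, where 8 mitochondrial and 35 plastid genes were listed for all 3 memory plants (19.5% and 34.0%, beside 37.2% of all listed genes). The mitochondrial count is small, and with the keywords sought anywhere in the description it was 6 of 47 genes (12.8%) against 15 of 107 plastid genes (14.0%). Without plant 1, 5 mitochondrial genes were in all remaining lists. By the location text of the annotation, 10 of 81 listed mitochondrial genes (12.3%) and 38 of 279 listed plastid genes (13.6%) were in all 6, each 1.499% of the annotated genes of that organelle. The sets by location text did not leave out the classes that the keyword rule leaves out.

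**Figure D2:**
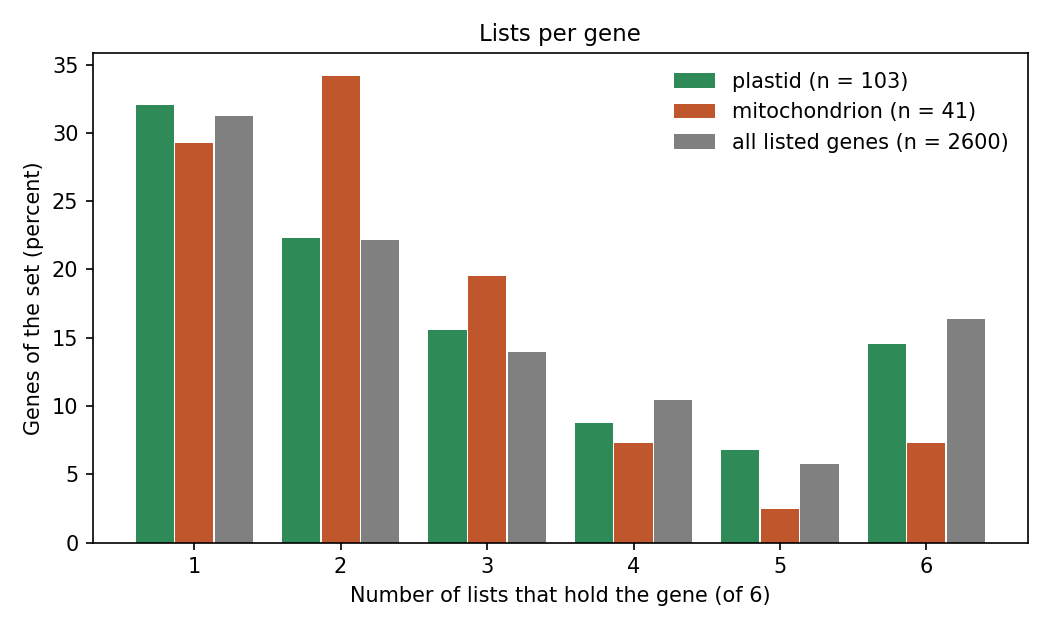
Percent of genes (vertical axis) by the number of lists that hold them (horizontal axis) for 103 plastid genes, 41 mitochondrial genes and all 2600 listed genes. The mitochondrial bar at 6 lists stands at 7.32%, below the plastid bar at 14.6%, and its highest bar is at 2 lists.

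Genes for photosystems, antenna and electron transport, with their regulators, made up the largest group. It had 18 genes, of which 4 were in all 6 lists and 8 in 1. *LHCB2.1*, *PSAD1*, *PSBQ2* and AT2G44920, a protein of the thylakoid lumen, were in every list. *PSAK*, another photosystem I subunit, was listed for every plant against C2 and for plant 1 against C3. *FTRC*, the catalytic chain of ferredoxin-thioredoxin reductase, and AT5G28450, a chlorophyll a-b binding protein, were listed against both controls for plants 1 and 3 and for neither with plant 2. *PSBS*, needed for energy-dependent quenching, and *PGR5*, of cyclic electron flow, had 1 listing each, plant 2 and plant 3 against C2. The 7 genes grouped with photosystem and thylakoid assembly, *WEB1* of chloroplast movement among them, reached at most 3 lists, *LPA2* against C2 alone and *LPA3* against C3 alone, both factors of photosystem II assembly.

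Over all listed genes the median was 2 lists and 16.4% were in all 6. Chlorophyll and haem metabolism, grouped by hand with the listings in view, had 6 genes with a median of 5 lists. Of the 6 genes, 3 were in all 6 lists. These were *HEME2*, a uroporphyrinogen decarboxylase of the common part of the pathway, *CHLH* (known as *GUN5*), the magnesium chelatase subunit that opens the chlorophyll branch, and *NYC1*, which starts chlorophyll b breakdown. *FC1*, a ferrochelatase of the haem branch, was in 4 lists, and *HEMA1*, the glutamyl-tRNA reductase at the entry, in those of plants 2 and 3 against C2.

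Plastid import and envelope genes numbered 8, none in fewer than 2 lists, while 31.3% of all listed genes were in 1. *TOC120* and *TOC90*, GTPase receptors of the TOC159 family, and *CEQORH*, an inner envelope protein, were in all 6. AT4G02482, annotated as an outer envelope GTP-binding protein, was in 5 and missed plant 1 against C3. Among 15 genes of plastid lipid and isoprenoid synthesis, *CAC3*, a subunit of plastid acetyl-CoA carboxylase, and *FAX1*, which exports fatty acids, were in all 6, and *CYP74A* (allene oxide synthase of jasmonate synthesis) and *PAP1* were in 5.

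*TKL-1*, a transketolase of the Calvin cycle, was in all 6 lists, and *GAPCP1*, of plastid glycolysis, in 5, among 9 genes of carbon fixation and sugar metabolism. *CS26*, which makes S-sulfocysteine, was in every list while 6 of the 10 genes for amino acids, sulphur and vitamins were in 1. *CPN60A2*, a chaperonin subunit, was in all 6 and *HSP70-6*, a stromal chaperone, in 5 among 10 proteases and chaperones. The 15 genes for plastid genome, RNA and translation had 0 in all 6 lists. *RECG*, a DNA helicase for organelle recombination, came nearest with 5, missing only plant 1 against C2, followed by *DCL* and the nucleoid protein AT2G24020 with 4.

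Of the mitochondrial genes, those of redox and metals stood highest. *FRO3*, a ferric reductase, and *GPX6*, a glutathione peroxidase, were in all 6, *GLY3*, a persulfide dioxygenase, in 5 and *DHAR1* in 4. *INVC*, a mitochondrial invertase, was the remaining mitochondrial gene in all 6. The 8 respiratory chain genes had 0 in all 6 lists and a median of 2, and 7 of them were listed for plant 3 against 3 each for plants 1 and 2. Of all listed genes, 74.0% were listed for plant 1, 63.7% for plant 2 and 58.3% for plant 3. *CYC12*, a cytochrome c1, was in 4 lists, as was AT1G29620, named for a cytochrome oxidase polypeptide. The 10 genes of protein import, assembly and turnover reached at most 3 lists, with 9 listed for plant 1, 6 for plant 2 and 3 for plant 3, the order of all listed genes. Roles were given by hand with the listings in view, so the groups' counts are descriptions.

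**Figure D3:**
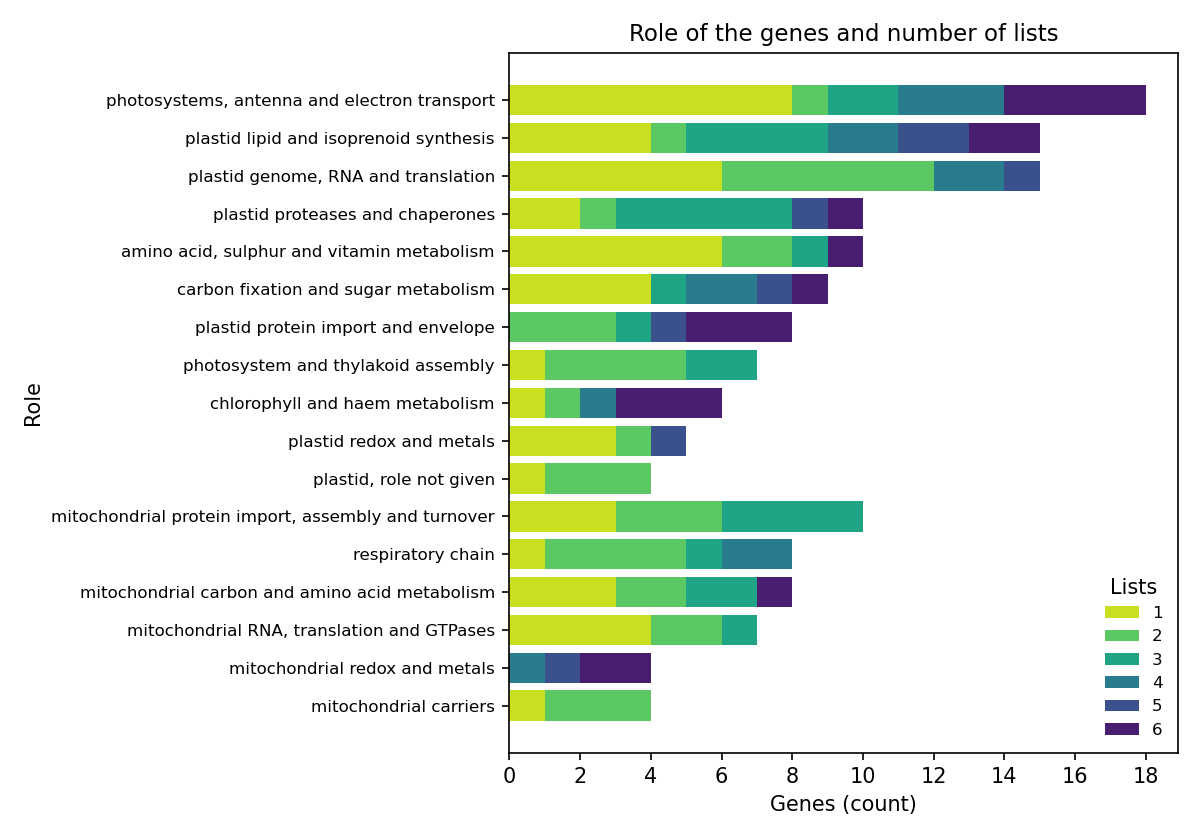
Number of genes (horizontal axis) in each role (vertical axis), with colour for the number of lists that hold them, plastid roles above mitochondrial roles. Chlorophyll and haem metabolism holds 3 of 6 genes in all 6 lists, while the respiratory chain and mitochondrial import hold 0. Of all listed genes, 16.4% were in all 6.

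The lists differed in size, and the organelle genes followed them. They numbered 79, 71 and 69 for plants 1, 2 and 3 against C2 and 68, 60 and 47 against C3. The share of all genes in those lists was 5.86%, 4.72% and 4.42% against C2 and 4.76%, 3.84% and 3.55% against C3. Organelle genes made up 4.91%, 5.48% and 5.69% of the C2 lists and 5.21%, 5.70% and 4.83% of the C3 lists. Plastid genes per list ran from 35 to 55 and mitochondrial genes from 12 to 23. The C2 list of plant 3 held 1.47 times as many organelle genes as its C3 list, against 1.25 times for all listed genes, and for plants 1 and 2 the ratios were 1.16 and 1.18 against 1.23. Both controls gave a listing for 72 of the 148 genes (48.6%, beside 49.7% of all listed genes), C2 alone for 48 (32.4%, beside 31.2%) and C3 alone for 28 (18.9%, beside 19.1%). These shares were near those of all listed genes.

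Some genes were listed for every memory plant against 1 control only. Against C2 these were *LHCB1.1*, *FBA3* (a plastid aldolase), *MGD3* (galactolipid synthesis), *FTSH7* (a plastid protease), *LPA2* and *NAD-ME2* (mitochondrial malic enzyme). Against C3 they were *LPA3* and *TOM7-1*, a subunit of the mitochondrial outer membrane translocase. These 8 genes were chosen for this pattern, in which listings differ by the wild type plant and not by the memory plant. The share of all listed genes with the pattern was not worked out.

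Other genes were listed for 1 memory plant against both controls and for no other plant. Plant 1 had 10, namely *MCD1* (plastid division), *WEB1* (chloroplast movement), *CTPA3*, *S-RBP11*, *CpNIFS3*, *CYC11*, *DGP2*, *MTM1*, AT3G49725 and AT4G21770. Plant 2 had 4, namely *CSD2* (a plastid superoxide dismutase), *CCB2* (cytochrome b6 assembly), *EFTS* and *FDH1*. Plant 3 had 3, namely *GAMMACAL2* (a complex I subunit), AT3G24200 (ubiquinone synthesis) and AT4G37920. The share of all listed genes in this class was not worked out. In the wider class of genes listed for a single plant, against 1 control or both, were 65 of the 148 genes (43.9%). This was near the 41.3% of all listed genes. The 65 genes were 29 for plant 1, 21 for plant 2 and 15 for plant 3, and over all listed genes 571, 297 and 205.

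**Figure D4:**
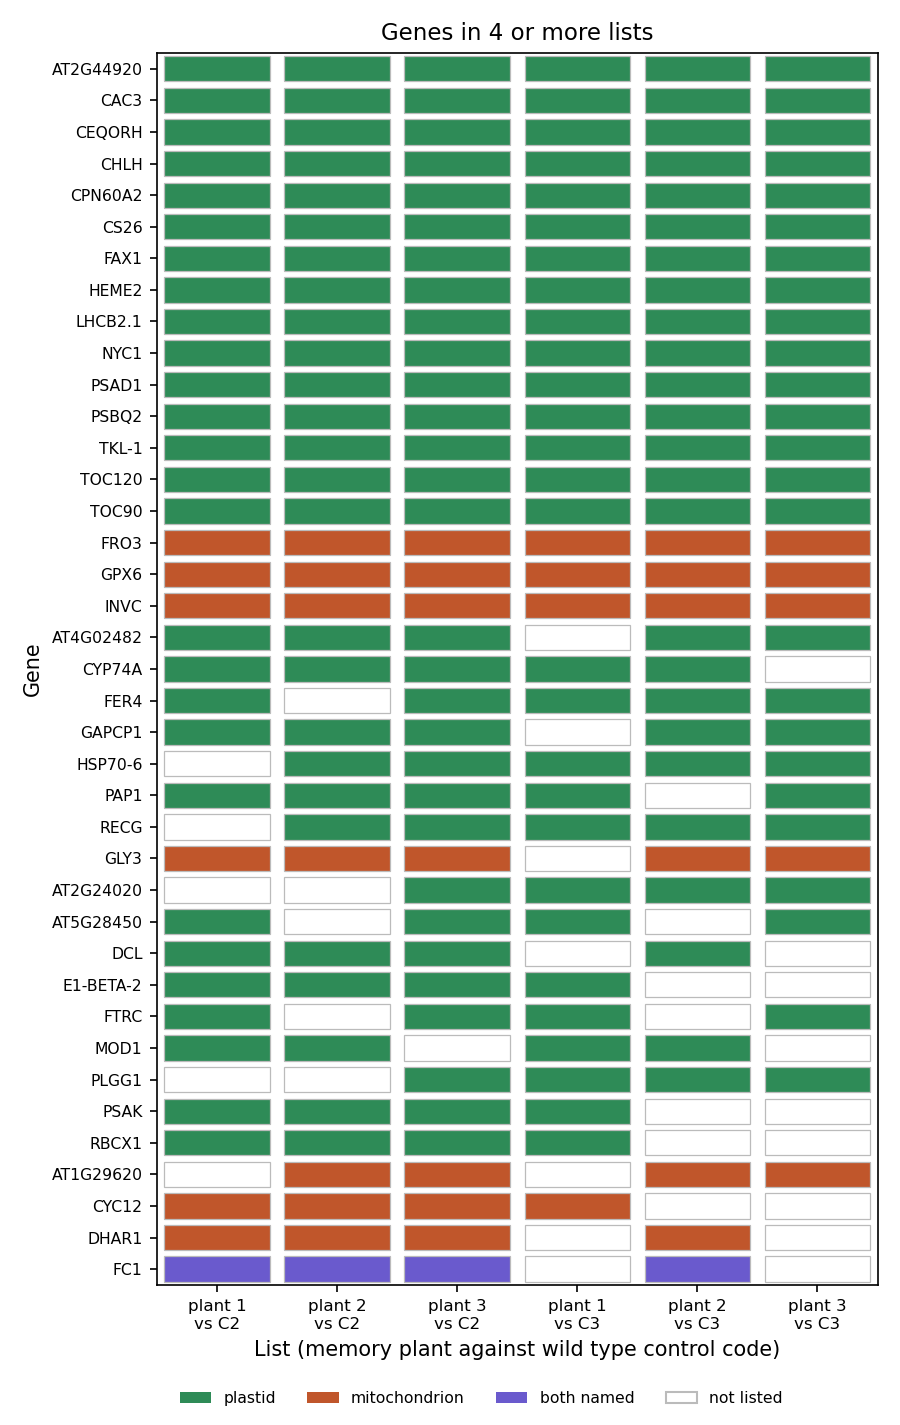
Presence (filled) or absence (white) of each of the 39 genes in 4 or more lists (rows) in the 6 lists (columns), coloured by organelle. The 18 genes in all 6 lists stand at the top, 15 plastid and 3 mitochondrial. The gaps of the rest fall on every list, most of them on the lists against C3.

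In some families with a listed gene, close relatives were listed unequally. Most genes were in no list, since 9.47% of all genes were in at least 1 and 1.55% in all 6. *LHCB2.1* was in all 6 lists, AT3G27690 (*LHCB2.4* in the lists, *LHCB2.3* in the annotation) in 3 and *LHCB2.2*, 22517 bp from *LHCB2.1*, in 1. *LHCB1.1* was in 3 lists and the neighbouring *CAB3* and *CAB1* in 0. *PSAD1*, *PSBQ2* and *TKL-1* were in 6, and their relatives *PSAD-2*, *PSBQA* and AT2G45290 in 0. *HEME2* was in 6 and *HEME1* in 1. *TOC120* and *TOC90* were in 6, and *TOC159*, the main receptor, and *TOC132* in 0. *FTSH7* was in 3 and its relative *FTSH9*, outside the keyword rule, in 6. *CYC12* was in 4 and *CYC11* in 2. The tandem genes *RBCS-1B* and *RBCS-2B*, 1095 bp apart, had 1 listing each, both for plant 1 and against different controls. These families were chosen after the listings were seen, and reads from near-identical copies may have been shared between them. Over the gene and 2 kb on both sides, 12.0% of 31-mers recurred in the genome for *LHCB2.1*, 17.8% for *LHCB2.2*, 15.1% for *PSAD1* and 30.7% for *RBCS-1B*, but 1.06% or less for *TOC120*, *TOC90* and *TKL-1*. The relatives *PSAD-2* and *RBCS-2B* had 0.22% and 6.87%. Repeats were counted anywhere in the nuclear genome, so these values do not measure sharing between relatives. Outside these families, the value was 67.0% for AT5G28450, 31.4% for AT1G29620 and 22.5% for *GLY3*.

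The members were in a list by construction, so a share that were listed needs a denominator from the annotation. By RefSeq product name with the same keywords, 29 of 200 plastid genes (14.5%) and 19 of 197 mitochondrial genes (9.64%) were in at least 1 list, beside 9.47% of all genes. By the location text of the annotation the order turned, with 279 of 2535 plastid genes (11.01%) and 81 of 667 mitochondrial genes (12.1%). Ribosomal proteins, pentatricopeptide repeat proteins, kinases and transporters were left out of the product-name sets but not of the location sets. By product name, the share of plastid genes in a list ran from 5.0% to 8.5% and that of mitochondrial genes from 2.54% to 5.58%, with plastid above mitochondrion in all 6 lists. By location it stood below in all 6. The order of the organelles in this measure therefore depended on how the sets were drawn up. Organelle assignment and left-out classes changed together and cannot be told apart here. Only 21 and 9 of the genes listed by product name are among the 148.

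**Figure D5:**
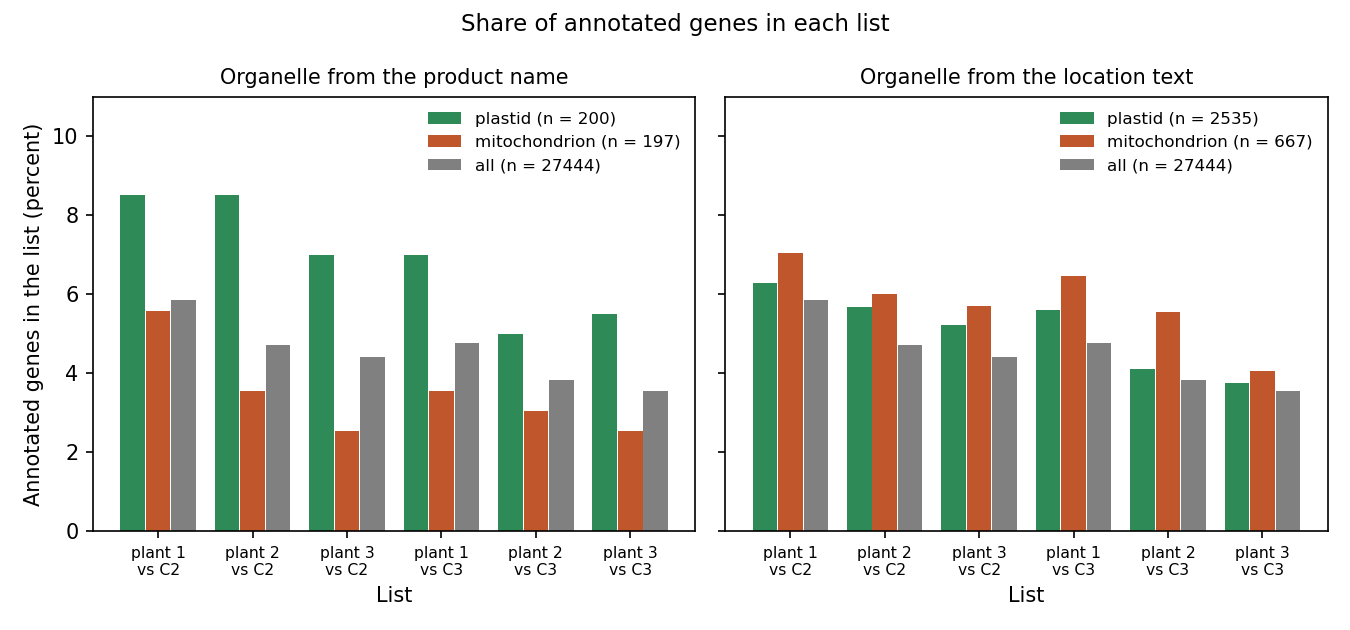
Percent of annotated nuclear genes present in each list, by organelle taken from the product name (left) or from the location text (right), with all 27444 genes in grey. The classes left out on the left are not left out on the right. Plastid bars lie above mitochondrial bars on the left and below them on the right.

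Pathway lists gave denominators by name, with 40 of 269 genes listed (14.9%, beside 9.47% of all genes) and 9 in all 6. The pathway lists were chosen with earlier results of these data known, so their shares are descriptions. Photosystem II had 5 of 12 listed (*PSBQ2*, *PSBS*, *PSBP-2*, *PSBW* and *PSBX*), photosystem I 2 of 13 (*PSAD1* and *PSAK*) and the antenna 4 of 20. Chlorophyll and haem synthesis had 7 of 25, with *CAO*, which makes chlorophyll b, in 4 lists and *PORA* in 2. Plastid proteases had 5 of 23 (*CLPP4*, *CLPR1*, *CLPC2* and *FTSH7* with 3 lists each, *FTSH9* with 6), and plastid import 2 of 18. Plastid transcription had 1 of 22, the polymerase *RPOT3*, and plastid division 1 of 12, *MCD1*.

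Mitochondrial pathways ran from 0 of 12 to 3 of 9 genes listed, beside the same 9.47%. Complex I had the 3 of 9 (*CI51* in 3 lists, *GAMMACAL2* in 2 and *CA2* in 1). Complexes II to IV and cytochrome c had 1 of 25 (*COX10*), the ATP synthase and carriers 0 of 12, and alternative oxidases and dehydrogenases 1 of 13 (*NDB2*). These pathway lists were partial. They did not hold the cytochrome c1 genes *CYC11* and *CYC12* or the 4 mitochondrial carrier genes among the organelle genes described here, all of which were listed. Also missing were the listed complex I genes AT1G16700 and *CIB22* and the listed import genes *MTX1* and *TIM14-2*. The mTERF family of organelle transcription termination factors had 0 of 5 matched genes. Import had 4 of 23 (*TOM7-1*, *TIM8*, *TIM9* and *TOM5*). Organelle genome maintenance, the pathway of *MSH1*, had 1 of 20, which was *RECG*. Of 21 genes of retrograde signalling 5 were listed, with *CHLH* and *GLK1*, a transcription factor for photosynthesis genes, in all 6, *FC1* in 4, and *RCD1* and *CRY1* in 2.

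The listed organelle genes lay closer to their neighbours than listed genes as a whole, and farther from them than genes annotated to the same organelle. The median space to the neighbouring genes on both sides together was 1667 bp, with 1782 bp for plastid and 1407 bp for mitochondrial genes, beside 2683 bp for all listed genes and 1859.5 bp for all genes. For annotated plastid genes it was 946 bp by product name and 1293 bp by location, and for mitochondrial genes 686 and 1164 bp. Neither annotated set was drawn up as the 148 genes were, and the location sets kept the classes left out by the keyword rule. For the 18 genes in all 6 lists it was 1498 bp, against 3687 bp for the other 408 genes in all 6. A peak within 2 kb of a gene can also lie within 2 kb of its neighbour. A listed neighbour within 4 kb was present for 47 of the 148 genes (31.8%), beside 27.3% of all listed genes and 14.6% of all genes. *ACHT1* and *MIRO1*, with 1 listing each, had the neighbour's exact pattern over the lists (1.35%, beside 2.35% of all listed genes). 31-mers shared with an organelle genome lay in or within 2 kb of 3 of the 148 (2.03%, namely *GDH2*, *CTPA3* and *CYC11*), beside 1.81% of all listed genes and 1.59% of all genes. None of the 3 was in all 6 lists. By chromosome, 27.2% of plastid genes lay on chromosome 2, beside 17.9% of listed genes, and the mitochondrial share there was 12.2%.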

How the data were processed

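Per the labels, FAIRE-seq libraries came from crosslinked rosettes of 2 wild type and 3 *msh1* memory plants. Decrossed pools of 3 plants per genotype were not analysed here. The authors deposited 6 gene lists with a locus identifier, a symbol and a description per gene, for genes within 2 kb of a peak of 1 memory plant with 1 wild type plant as control, without pooling. These entries have no unit of level, and depth is unknown. The submitters' processing notes name Trim Galore 0.4.1, cutadapt 1.9.1, Bowtie2 and the build TAIR10. The peak caller and threshold are not given in the sources used here.

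Each locus was looked up in RefSeq's TAIR10.1 annotation (27444 nuclear protein-coding genes, 0 unmatched) with Python 3.11.15, pandas 2.3.3 and numpy 2.4.6. The count of lists per gene, the space to neighbouring genes, 31-mers repeated in the genome or shared with organelle genomes over the gene and 2 kb on both sides, and motifs in the 250 bases before the gene start were computed. The keyword rule was checked on made-up descriptions, and counting of lists per gene on simulated lists. No test was made, since each list compares 1 library with 1 library and genes are not replicates.

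The genes, pathway lists and motifs were chosen with earlier results of these data known. Some pathway symbols were matched by locus after the listings were seen, because their symbols were missing or belonged to other genes, and 2 such symbols were dropped. Genes were named if they were in all 6 lists, in the 3 lists of 1 control and 0 of the other, in both lists of 1 memory plant only, or in a pathway list with a listing. Examples outside this rule were chosen after their values were seen. Genes naming both organelles were left out of the plastid and mitochondrial counts. Alternatives left out a memory plant or a control, widened the keywords, removed genes with organelle-like or repeated sequence, or counted neighbours once.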

Additional observations from a re-analysis of the deposited data

How the results depend on the processing

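Of 98 alternative values for 15 results, 85 stayed within a factor of 1.5 of the reported one. Against C2 alone, 36 genes were in all 3 lists, 28 of them plastid and 7 mitochondrial, and the median gene was in 66.67% of the lists, also for plastid genes (66.67% against C3 alone). Fewer lists make being in all of them easier. Keywords anywhere in the description gave 6 mitochondrial genes in all lists. Without 1 memory plant, genes in all lists ran from 20 to 24, plastid 17 to 19 and mitochondrial 3 to 5 (5 without plant 1). The mitochondrial share listed by product name ran from 6.091% (without plant 1) to 9.137%. Over the genes in all 6 lists alone, motif shares were 38.89% for site II elements, 16.67% for TATAAA and 5.556% for both the evening element and the telo-box, over 18 promoters. Removing genes with over 10% repeated 31-mers left 16 genes in all 6, 13 of them plastid, and counting genes of both organelles with each changed no count in all lists. These last settings and the organelle by location text were chosen after seeing the data. No paired analysis was possible because a list is presence or absence for 1 plant pair, and the control codes are not tied to replicate numbers.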
